A study of Homo sapiens with 7 samples.

Results

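Described here are 9 genes whose products cut, polyadenylate and terminate RNA polymerase II transcripts, namely CPSF1, CPSF2, CPSF3, CPSF4, WDR33, CSTF1, CSTF3, PCF11 and XRN2. They were chosen by name for this function, out of 19630 protein-coding genes with a known strand. The rule uses no measured value, but the genes were chosen with earlier results of these data known. Each gene was taken by its RefSeq coordinates on GRCh38, with 1 kb before its transcription start site (TSS) and 10 kb after its transcription end site (TES), and every listed peak in that window was collected. All 9 genes were found.

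The libraries were chromatin immunoprecipitations from HEK293, a cell line derived from human embryonic kidney, with the antibody 6D7 against phosphothreonine 4 (pThr4) of the RNA polymerase II C-terminal domain. Aliquots of nuclear lysate were incubated with the phosphatase SCP1, either as the active enzyme (SCP1 WT) or as the catalytically inactive form (SCP1 D96A). Cells of both groups were fixed with formaldehyde, grown in the same medium and labelled with no other treatment, and each group had 3 biological replicates. The design asked where pThr4 sits next to a phosphorylated serine 5, taken to hide it from the antibody until the phosphatase has acted.

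The C-terminal domain is a tail of repeats of 7 residues on the largest polymerase subunit, and the phosphates it carries change from the start of a gene to its end. Serine 5 phosphate dominates near the promoter. At the 3′ end the cleavage and polyadenylation specificity factor (CPSF) reads the polyadenylation signal and cuts the nascent RNA, the cleavage stimulation factor (CstF) binds the downstream element, PCF11 joins the machinery to the C-terminal domain, and the exonuclease XRN2 degrades the RNA that is still being made until the polymerase is released. The genes below encode these factors, and what follows is the listed pThr4 signal in the windows of these genes, not on their products. Several windows also hold parts of neighbouring genes, to which some of the signal may belong.

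Each library had its own peak list with, for each peak, a fold enrichment over the background of that library and a −log10 p-value. The lists gave no reads, so depth is unknown. They held 6680 to 36892 peaks with SCP1 WT and 1163 to 2699 with SCP1 D96A on chromosomes 1 to 22 and X. The weakest listed peak had a −log10 p-value of 3.08 to 3.79 with SCP1 WT and 4.20 to 4.6 with SCP1 D96A. A gene without a listed peak therefore has none that passed the cutoff of that list, and fold enrichments, which have no common scale, are given by library and were not tested across lists. The peak names of replicate 3 in both groups carried another number than those of replicates 1 and 2.

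Peaks covered more of the member windows in every SCP1 WT library than in any SCP1 D96A library. The windows held 19, 15 and 33 peaks in SCP1 WT replicates 1, 2 and 3, and 4, 1 and 7 peaks in SCP1 D96A replicates 1, 2 and 3. These peaks covered 37.3, 24.1 and 54.8 kb of the windows with SCP1 WT and 6.25, 1.46 and 7.05 kb with SCP1 D96A. The means were 38.7 ± 15.4 kb (SD, n = 3) and 4.92 ± 3.02 kb (SD, n = 3), a difference of 33.8 kb, which was 26.8 kb within replicates 1 and 2. Per 1000 peaks of the list, however, the windows held 1.51, 2.25 and 0.895 peaks with SCP1 WT and 1.62, 0.860 and 2.59 with SCP1 D96A, and these ranges overlapped. As a share of the window, which does not grow with gene length, peaks covered a mean over the 9 genes of 11.7%, 7.30% and 16.3% with SCP1 WT, against 3.94%, 2.31% and 8.17% over all protein-coding genes. With SCP1 D96A the shares were 2.05%, 0.552% and 2.36% for the 9 genes and 0.920%, 0.431% and 0.998% for all genes. Most of each 9-gene mean came from CPSF1 and CPSF4. In SCP1 WT replicate 1, peaks covered 14.2 of 27.1 kb for CPSF1 and 8.45 of 29.4 kb for CPSF4. The remaining genes had, on average, no larger share than all genes. The number of the 9 genes with a peak was 8, 8 and 9 with SCP1 WT and 4, 1 and 6 with SCP1 D96A, a difference of means of 4.67 genes, or 5.50 within replicates 1 and 2. Over all protein-coding genes the share with a peak was 41.5%, 30.1% and 65.9% with SCP1 WT and 16.2%, 8.23% and 17.2% with SCP1 D96A, and the 1 gene of SCP1 D96A replicate 2 is near the share of that list. None of the 9 genes was without a peak in all 6 libraries, against a background of 32.0% of all protein-coding genes. Among the 12685 genes at least as long as the shortest of the 9, the share was 26.3%.

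**Figure D1:**
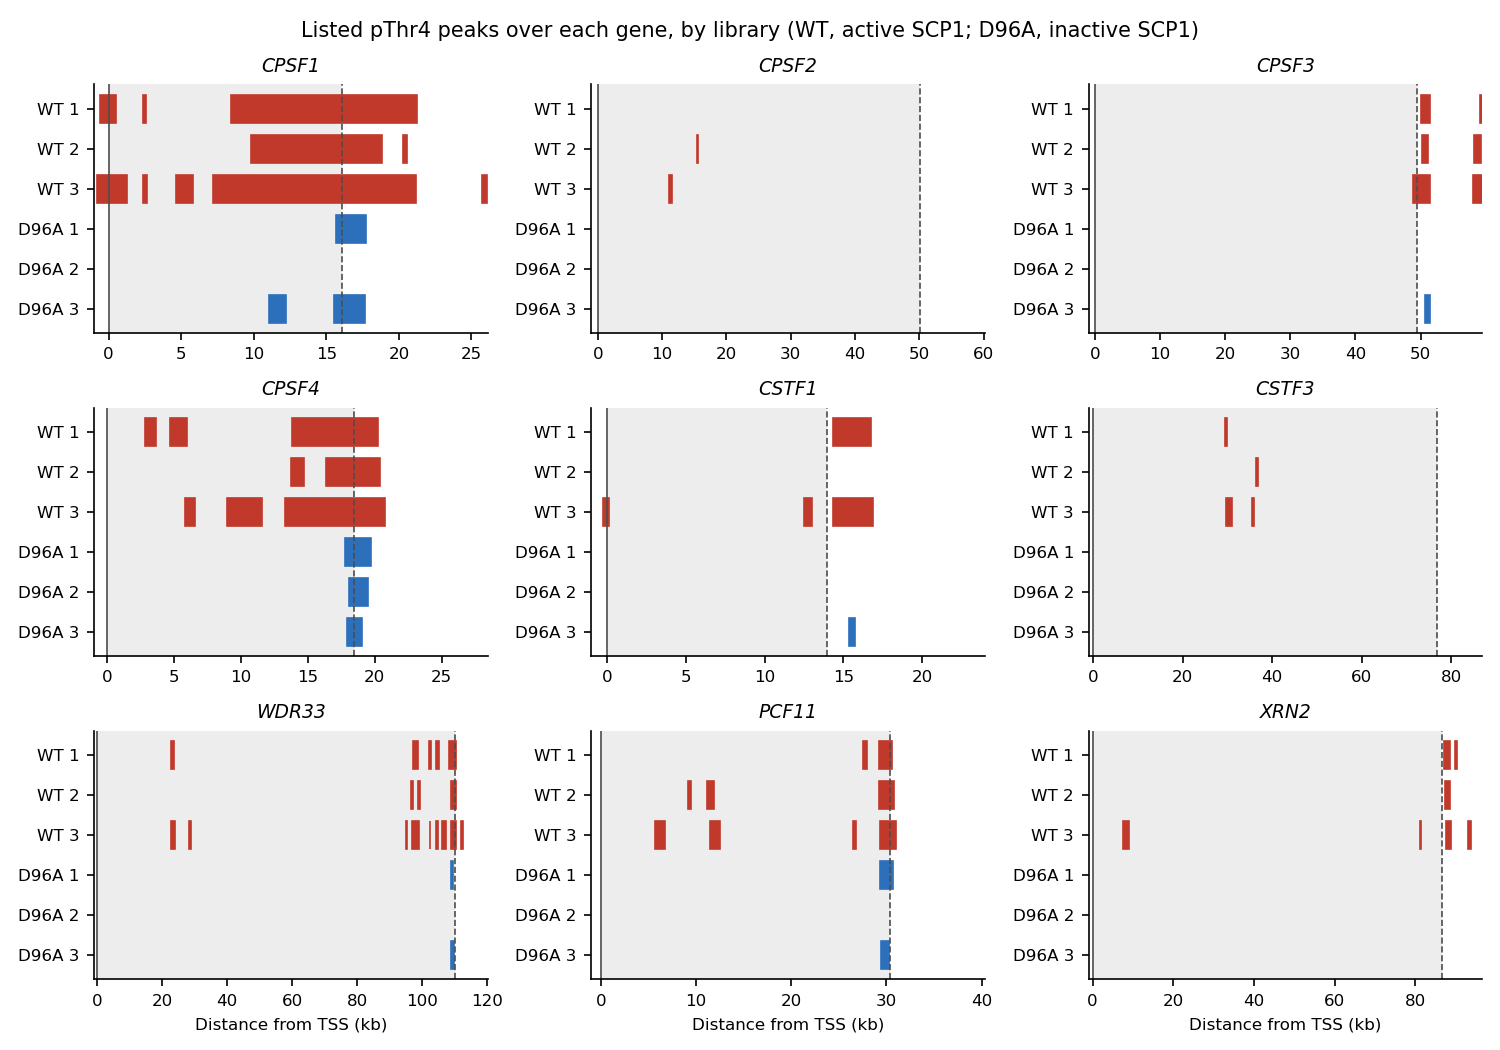
Listed pThr4 peaks (bars) over each of the 9 genes, by library (rows; red, SCP1 WT; blue, SCP1 D96A), against the distance from the TSS in kb; grey, the gene; solid line, TSS; dashed line, TES. With SCP1 D96A, 11 of the 12 peaks reach the gene end, and with SCP1 WT 29 of 67 do, while others lie along the gene.

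Of the 3 zones compared, the gene end held a peak in the most genes, but at 11 kb it is also the widest, against 2 kb around the TSS and 4 kb for the early gene body. From 1 kb before to 10 kb after the TES, 7, 6 and 7 of the 9 genes had a peak with SCP1 WT and 4, 1 and 6 with SCP1 D96A. The same zone held a peak in 31.0%, 22.8% and 47.4% of all protein-coding genes with SCP1 WT and in 12.5%, 6.51% and 13.3% with SCP1 D96A. Coverage of this zone was higher in every SCP1 WT library than in any SCP1 D96A library for 5 genes, CPSF1, CPSF3, CPSF4, WDR33 and XRN2, against a background of 17.0%. Within 1 kb of the TSS there was a peak in 1, 0 and 2 of the 9 genes with SCP1 WT and in 0 with SCP1 D96A, against 7.04%, 4.47% and 19.2% of all genes with SCP1 WT and 2.30%, 0.902% and 2.56% with SCP1 D96A. Of the 9 genes, 7 had no TSS peak in any library, as did 80.0% of all genes, and 0 had one in all 3 SCP1 WT and no SCP1 D96A library (background 1.28%). The 9 genes are longer than most, with a median of 49.4 kb against 24.8 kb for all protein-coding genes, and a longer window can hold more peaks.

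**Figure D2:**
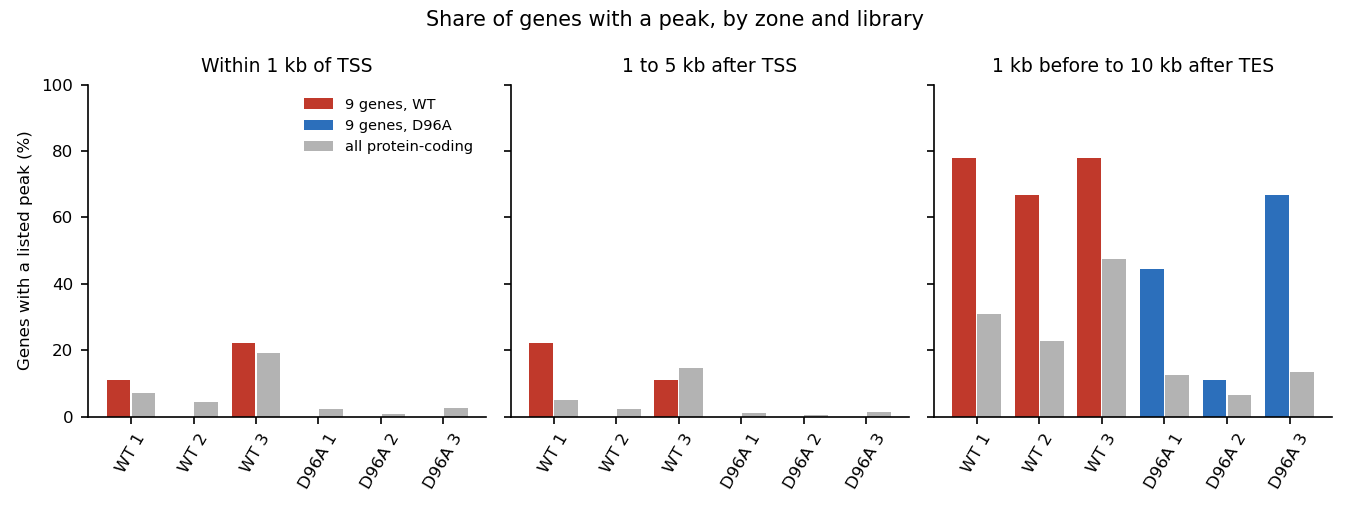
Share of genes with a listed peak (%, vertical axis) in 3 zones, by library; coloured bars, the 9 genes (red, SCP1 WT; blue, SCP1 D96A); grey bars, 19630 protein-coding genes. The gene end holds a peak in 6 to 7 of the 9 genes with SCP1 WT, whereas the zones near the TSS hold one in 0 to 2.

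Peaks seen in several libraries were joined where they overlapped, which gave 39 places in the 9 windows. Of these, 6 had a peak in a SCP1 D96A library and 33 in SCP1 WT libraries alone, and each of the 39 had a peak in at least 1 SCP1 WT library. All 6 places shared by both groups lay at a gene end, those of CPSF1, CPSF3, CPSF4, CSTF1, WDR33 and PCF11. Of the 20 places that lay in a gene body away from the TSS, the first 5 kb and the TES, none had a SCP1 D96A peak, and 10 of them had a peak in SCP1 WT replicate 3 alone, the longest list. The 1 SCP1 D96A peak that lay wholly inside a gene, on CPSF1, falls under the broad SCP1 WT peaks of its gene end and is counted there. Of the 67 SCP1 WT peaks, 20 had a −log10 p-value below 4.20, under the weakest peak of every SCP1 D96A list, and 17 of these 20 were in SCP1 WT replicate 3. Such peaks could not have been listed with SCP1 D96A at the same strength. Below 4.6, the limit of SCP1 D96A replicate 2, lay 36 of the 67 SCP1 WT peaks, which could not have been listed in that library at the same strength.

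The group difference was then asked of each gene. Covered sequence was higher in the lowest SCP1 WT library than in the highest SCP1 D96A library for 7 of the 9 genes, CPSF1, CPSF3, CPSF4, CSTF3, WDR33, PCF11 and XRN2, against a background of 23.5% of all protein-coding genes (25.4% of the 12685 genes at least as long as the shortest of the 9). Each of these 7 gave p = 0.1 in the two-sided exact permutation test, the smallest value that 3 against 3 libraries allow, so no gene can pass 0.05. The reverse order occurred in 0 of the 9 genes and in 0 of all genes tested. A peak in all 3 SCP1 WT and no SCP1 D96A library was found for 2 genes, XRN2 and CSTF3, against a background of 8.89% (10.7% of these 12685 genes). A peak in all 6 libraries was found for 1 gene, CPSF4, against a background of 7.12% (6.05% of these 12685 genes). Without SCP1 D96A replicate 2, the shortest list, 4 genes had a peak in all libraries. The share of all genes under this looser rule was not computed, so this count has no background.

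**Figure D3:**
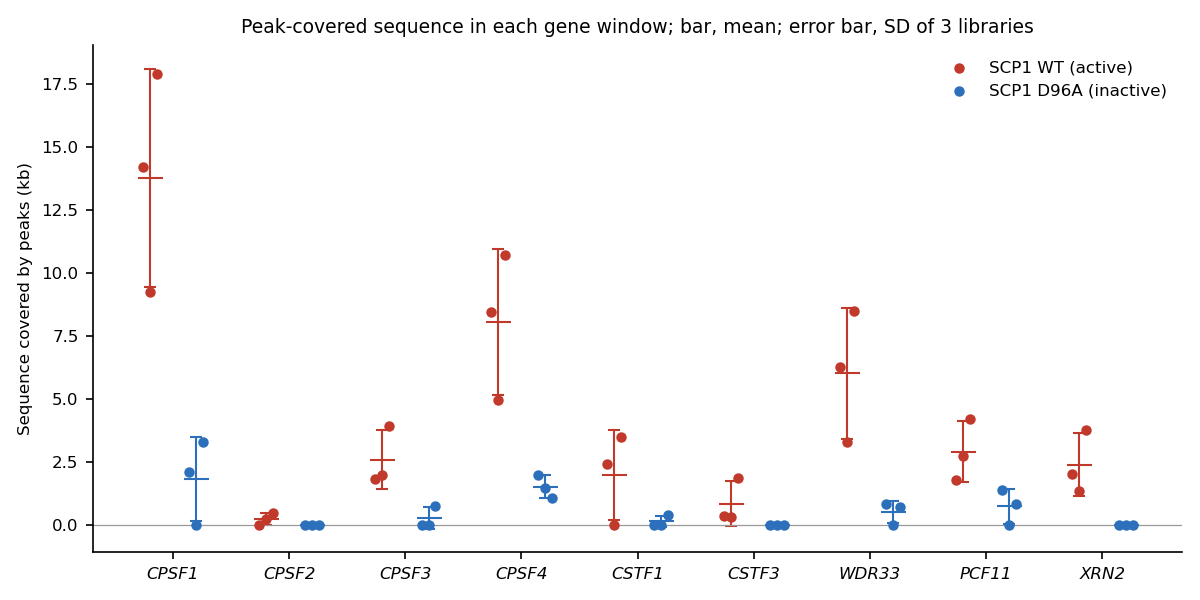
Sequence covered by peaks (kb) in the window of each of the 9 genes; points, single libraries (red, SCP1 WT; blue, SCP1 D96A); horizontal bars, means; error bars, SD of 3 libraries. CPSF1, CPSF4 and WDR33 have the widest coverage with SCP1 WT, with means of 13.8, 8.05 and 6.01 kb.

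The subunits that recognise the polyadenylation signal are encoded by CPSF1, WDR33 and CPSF4. CPSF1, the scaffold of this module (gene ID 29894, chromosome 8, 144393231 to 144409335, minus strand), was covered most widely of the 9 genes, by 14.2, 9.25 and 17.9 kb in the SCP1 WT libraries and 2.10, 0 and 3.29 kb in the SCP1 D96A libraries. The means were 13.8 ± 4.34 kb (SD, n = 3) and 1.80 ± 1.67 kb (SD, n = 3), and the groups did not overlap (exact permutation test, p = 0.1). With SCP1 WT, single broad peaks of 12828, 9013 and 13989 bp began 7.70, 6.28 and 8.88 kb before the TES and ended 5.12, 2.73 and 5.11 kb after it. With SCP1 D96A replicates 1 and 3, the peaks at this end were 2101 and 2129 bp wide and began 0.446 and 0.557 kb before the TES. All 3 SCP1 WT libraries thus had a peak reaching from the end of CPSF1 far into the gene, whereas with SCP1 D96A a separate peak of 1165 bp in replicate 3, starting 5.04 kb before the TES, was the one listed farther inside. The end of ADCK5 lies within 1 kb of the CPSF1 peaks and ADCK5 itself lies under them, so that this signal cannot be assigned to 1 gene.

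The fold enrichments of the broad CPSF1 peaks were 4.28, 3.88 and 4.26 with SCP1 WT. Those of the narrower SCP1 D96A end peaks were 3.81 and 3.91. The width of the end peak was larger in each SCP1 WT library than in either of these. CPSF1 was also 1 of the 2 genes with a TSS peak. It had a fold enrichment of 3.52 and a −log10 p-value of 4.86 in SCP1 WT replicate 1, and of 3.98 and 5.92 in replicate 3, and spanned 0.611 kb before to 0.503 kb after the TSS and 0.819 kb before to 1.29 kb after it. SCP1 WT replicate 2 and the SCP1 D96A libraries had no peak there.

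CPSF4 encodes a zinc finger subunit that touches the signal itself (gene ID 10898, chromosome 7, 99438943 to 99457373, plus strand). It was the 1 gene with a gene end peak in all 6 libraries, against a background of 5.66%. Its coverage was 8.45, 4.97 and 10.7 kb with SCP1 WT and 1.98, 1.46 and 1.07 kb with SCP1 D96A, means of 8.05 ± 2.90 kb (SD, n = 3) and 1.5 ± 0.456 kb (SD, n = 3; exact permutation test, p = 0.1). The peak at the end was 6403, 4041 and 7434 bp wide with SCP1 WT and 1978, 1463 and 1069 bp with SCP1 D96A. It began 4.61, 2.06 and 5.13 kb before the TES with SCP1 WT and 0.660, 0.395 and 0.478 kb before it with SCP1 D96A. On the downstream side the reach differed less, with ends 1.80, 1.98 and 2.30 kb after the TES against 1.32, 1.07 and 0.590 kb. Most of the added coverage in the CPSF4 window with SCP1 WT therefore lay before the TES, where the readthrough gene ATP5MF-PTCD1 lies too.

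The fold enrichment of the CPSF4 end peak was 4.99, 4.82 and 5.51 with SCP1 WT and 4.77, 3.84 and 4.69 with SCP1 D96A. Its −log10 p-values were 9.12, 8.57 and 10.9 against 7.81, 5.59 and 7.62. In their own lists these peaks ranked 367 of 12625, 315 of 6680 and 304 of 36892 by p-value with SCP1 WT, and 284 of 2466, 742 of 1163 and 315 of 2699 with SCP1 D96A. The end of ATP5MF lay under or within 1 kb of the peak in each library. ATP5MF-PTCD1 lay under this peak in each library, and under the peaks farther inside CPSF4. None of this signal can be assigned to CPSF4 alone.

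WDR33, which contacts the signal beside CPSF4 (gene ID 55339, chromosome 2, 127701027 to 127811171, minus strand), is the longest of the 9 genes at 110.1 kb. Its 3′ end had a peak in the 5 libraries other than SCP1 D96A replicate 2, the strongest of the 9 genes in the SCP1 WT libraries and SCP1 D96A replicate 1, while in SCP1 D96A replicate 3 the CPSF4 peak was stronger. The fold enrichment was 6.56, 6.59 and 8.42 with SCP1 WT and 4.94 and 4.44 in SCP1 D96A replicates 1 and 3. The −log10 p-value was 13.4, 12.8 and 19.2 against 7.82 and 6.22. The start of SFT2D3, a gene inside the last part of WDR33, lies under or within 1 kb of this peak, and the 2 genes cannot be told apart there.

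Upstream of that end WDR33 carried a series of weaker peaks that had no counterpart in the SCP1 D96A lists. Their −log10 p-values ran from 3.17 to 5.08. Several lay below 4.20, the lowest of the SCP1 D96A limits, and others below 4.6, the limit of SCP1 D96A replicate 2. Such peaks could not have been listed there at the same strength. A place 10.6 to 13.5 kb before the TES had peaks in all 3 SCP1 WT libraries, with fold enrichments of 3.80 in replicate 1, 3.53 and 3.87 in replicate 2 and 3.70 in replicate 3. Places 7.46 to 7.91 kb and 4.92 to 5.97 kb before the TES had peaks in SCP1 WT replicates 1 and 3. Far upstream, 22.6 to 23.8 kb after the TSS, both of these libraries again shared a peak, with fold enrichments of 3.63 and 3.77. In all, the WDR33 window was covered by 6.25, 3.29 and 8.49 kb with SCP1 WT and 0.808, 0 and 0.704 kb with SCP1 D96A, means of 6.01 ± 2.61 kb (SD, n = 3) and 0.504 ± 0.440 kb (SD, n = 3; exact permutation test, p = 0.1).

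**Figure D4:**
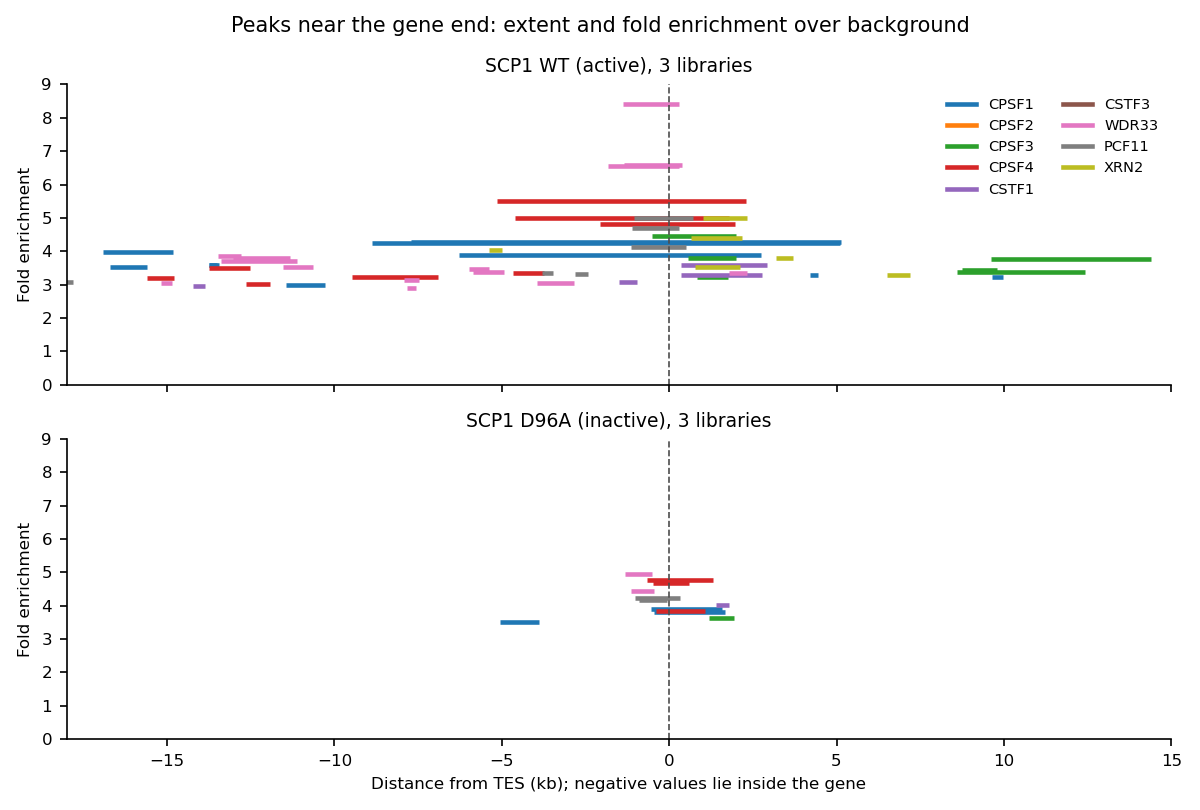
Extent of each peak relative to the TES (kb, horizontal axis; negative inside the gene) and its fold enrichment over the background of its library (vertical axis), for SCP1 WT (top) and SCP1 D96A (bottom); each line is 1 peak of 1 library, coloured by gene, and peaks farther before the TES than the axis reaches are not drawn. The highest peak in each panel is at the WDR33 end (8.42 with SCP1 WT and 4.94 with SCP1 D96A), and the CPSF1 and CPSF4 peaks extend into the gene with SCP1 WT.

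The nuclease module is encoded by CPSF3, the endonuclease that makes the cut, and its partner CPSF2. CPSF3 (gene ID 51692, chromosome 2, 9423654 to 9473101, plus strand) was covered by 1.82, 1.98 and 3.92 kb with SCP1 WT and 0, 0 and 0.757 kb with SCP1 D96A (exact permutation test, p = 0.1). All of this coverage lay at or after the gene end. One place, from 0.525 kb before to 2.01 kb after the TES, had fold enrichments of 3.78, 3.22 and 4.45 with SCP1 WT and 3.63 in SCP1 D96A replicate 3. It also holds the start of the next gene on the same strand, IAH1. The other place began 8.60 kb or more after the TES, within IAH1, and was listed in all 3 SCP1 WT and no SCP1 D96A library. Its −log10 p-values were 5.16, 4.31 and 4.22 in SCP1 WT replicates 1, 2 and 3. Those of replicates 2 and 3 were below 4.6, the lower limit of SCP1 D96A replicate 2, and could not have been listed there at the same strength. In SCP1 WT replicate 1 the peak ran past the window, to 14.4 kb after the TES, and the end of ADAM17 lay within 1 kb of it.

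CPSF2 (gene ID 53981, chromosome 14, 92121969 to 92172145, plus strand) stood apart from its partner. It had 1 peak of 243 bp in SCP1 WT replicate 2, 15.4 kb after the TSS, and 1 of 461 bp in replicate 3, 11.1 kb after the TSS. These peaks did not overlap, their fold enrichments were 3.55 and 2.90, and the other 4 libraries had none. Their −log10 p-values were 4.43 and 3.18, below 4.6, the lower limit of SCP1 D96A replicate 2. Neither the start nor the end of CPSF2 had a listed peak in any library. Coverage overlapped between the groups (two-sided exact permutation test, p = 0.4).

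CstF is represented by CSTF3, its scaffold subunit, and CSTF1, a WD-repeat subunit. CSTF3 (gene ID 1479, chromosome 11, 33084584 to 33161480, minus strand) showed 0.330, 0.290 and 1.87 kb of coverage with SCP1 WT and 0 in each SCP1 D96A library (exact permutation test, p = 0.1). The difference of 0.829 kb was 0.31 kb without SCP1 WT replicate 3. All of it lay deep in the gene, 29.5 to 36.8 kb after the TSS, and no single place had a peak in all 3 SCP1 WT libraries. The highest fold enrichment among these peaks was 3.63. Their −log10 p-values ran from 3.47 to 4.58, below 4.6, the lower limit of SCP1 D96A replicate 2. None could have been listed in that library at the same strength. CSTF3 and CPSF2 were the 2 genes without a gene end peak in any library, as were 50.1% of all protein-coding genes.

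CSTF1 (gene ID 1477, chromosome 20, 56392379 to 56406362, plus strand) is the shortest of the 9 genes at 13.98 kb. Its coverage was 2.43, 0 and 3.48 kb with SCP1 WT and 0, 0 and 0.396 kb with SCP1 D96A, with overlap between the groups (two-sided exact permutation test, p = 0.4). A place 0.342 to 2.93 kb after the TES had peaks of 2429 and 2587 bp in SCP1 WT replicates 1 and 3 and of 396 bp in SCP1 D96A replicate 3. Their fold enrichments were 3.29, 3.60 and 4.03. No other annotated gene lay under these peaks.

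CSTF1 was the other gene with a TSS peak, in SCP1 WT replicate 3 alone. It spanned 0.249 kb before to 0.120 kb after the TSS, with a fold enrichment of 2.95 and a −log10 p-value of 3.27, a strength below the weakest peak of the other 5 lists. The start of AURKA, a mitotic kinase gene on the other strand, lies under the same peak, with 163 bp between the starts. These bases are given here as the stretch that this peak covers, beside the 250 bases before the TSS of PCF11, where no library had a peak. Both are from RefSeq on GRCh38.p14, written 5′ to 3′ on the strand of the gene. Capitals mark the CCAAT box (CCAAT, or ATTGG on the other strand) and the GC box (GGGCGG, or CCGCCC), binding motifs of promoter factors.

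CSTF1, chr20:56392216-56392378, plus strand: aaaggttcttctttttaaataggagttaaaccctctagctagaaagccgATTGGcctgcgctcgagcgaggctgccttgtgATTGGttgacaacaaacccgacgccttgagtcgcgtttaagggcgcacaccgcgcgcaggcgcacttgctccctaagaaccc

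PCF11, chr11:83156881-83157130, plus strand: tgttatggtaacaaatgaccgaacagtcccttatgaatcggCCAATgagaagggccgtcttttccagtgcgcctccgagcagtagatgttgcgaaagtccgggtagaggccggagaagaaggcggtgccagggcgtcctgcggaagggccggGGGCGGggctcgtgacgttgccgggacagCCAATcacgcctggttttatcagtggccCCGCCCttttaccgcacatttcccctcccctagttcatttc

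The stretch between CSTF1 and AURKA held 2 CCAAT boxes and 0 GC boxes, and the PCF11 stretch 2 of each. Among the 8 genes with a sequence, 5 had a CCAAT box in the 250 bases before the TSS (34.4% of 15813 protein-coding promoters of the same length), 2 had a GC box (56.0%) and 0 had the letters TATAAA on either strand (9.25%). A start on the other strand lay within 1 kb upstream of 6 of the 9 genes, against 17.7% of all protein-coding genes. The neighbours were NDUFB1 for CPSF2, ITGB1BP1 for CPSF3, PTCD1 for CPSF4, AURKA for CSTF1, CSTF3-DT for CSTF3 and LOC124907885 for WDR33, with 79 to 262 bp between the starts. Of these 6 paired starts, that of CSTF1 was the 1 with a peak.

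PCF11 encodes a subunit of cleavage factor II that binds the phosphorylated C-terminal domain directly (gene ID 51585, chromosome 11, 83157131 to 83187451, plus strand). It is known to limit its own expression by early cleavage and polyadenylation inside its gene. At its end a peak was listed in 5 libraries, with fold enrichments of 4.70, 4.12 and 4.99 with SCP1 WT and 4.22 and 4.16 in SCP1 D96A replicates 1 and 3. Its widths were 1386, 1622 and 1756 bp against 1361 and 825 bp, and coverage of this zone overlapped between the groups (two-sided exact permutation test, p = 0.2). The antisense RNA gene PCF11-AS1 and ANKRD42-DT lie under this peak.

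Farther inside PCF11, places 5.69 to 6.73 kb, 9.17 to 9.50 kb and 11.1 to 12.5 kb after the TSS had peaks in SCP1 WT libraries, the last of them in replicates 2 and 3 and the others in 1 library each. Their fold enrichments ran from 3.06 to 3.87. SCP1 WT replicate 1 and the SCP1 D96A libraries had no peak in this part of the gene, so that the groups overlapped there. Of these 4 peaks, 3 had a −log10 p-value below 4.6, the lower limit of SCP1 D96A replicate 2, and 2 had one below 4.20, the lowest of the SCP1 D96A limits. Over the whole window the coverage was 1.78, 2.72 and 4.21 kb with SCP1 WT and 1.36, 0 and 0.825 kb with SCP1 D96A (exact permutation test, p = 0.1).

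XRN2 (gene ID 22803, chromosome 20, 21303331 to 21389825, plus strand) was the 1 gene with a gene end peak in all 3 SCP1 WT and no SCP1 D96A library, against a background of 6.46% of all protein-coding genes in this zone. The peak began 0.657, 0.764 and 0.997 kb after the TES and ended 2.17, 2.11 and 2.32 kb after it in SCP1 WT replicates 1, 2 and 3. It was 1510, 1350 and 1321 bp wide, with fold enrichments of 4.38, 3.54 and 4.99 and −log10 p-values of 8.0, 5.97 and 11.3. Each of these −log10 p-values was above 4.6, the highest of the 3 lower limits of the SCP1 D96A lists. No other annotated gene lies under this peak.

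Over the whole XRN2 window the coverage was 2.01, 1.35 and 3.77 kb with SCP1 WT and 0 in each SCP1 D96A library (exact permutation test, p = 0.1). SCP1 WT replicate 1 had a second peak 3.20 to 3.70 kb after the TES. SCP1 WT replicate 3 had one that began 6.52 kb after it, over NKX2-4, one 4.99 to 5.38 kb before it and one 7.54 to 8.91 kb after the TSS.

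Peaks in the early gene body, from 1 to 5 kb after the TSS, were listed in SCP1 WT libraries for 2 of the 9 genes, CPSF1 and CPSF4. In SCP1 WT replicate 1 both genes had one, in replicate 3 CPSF1 alone, and in replicate 2 neither. The other 7 genes had none in any library, as did 84.3% of all genes. The early CPSF1 peak at 2.35 kb after the TSS was nearly the same interval in replicates 1 and 3 (257 and 304 bp wide), with fold enrichments of 3.59 and 3.58 and −log10 p-values of 4.89 and 4.84. CPSF4 had peaks of 802 and 1244 bp starting 2.85 and 4.67 kb after the TSS in replicate 1, with fold enrichments of 3.20 and 3.50. The readthrough gene ATP5MF-PTCD1 lies under both, and LOC100131859 under the first, so that these peaks cannot be assigned to CPSF4 alone. The SCP1 D96A libraries had no early peak on the 9 genes. Over all protein-coding genes the early zone held a peak in 5.06%, 2.37% and 14.6% with SCP1 WT and 1.07%, 0.494% and 1.28% with SCP1 D96A. A peak there in all 3 SCP1 WT and no SCP1 D96A library was found for 0 of the 9 genes, against a background of 0.764%.

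Since the lists differ in length, the genes were also compared at equal strength and at equal number. With peaks under a −log10 p-value of 6 removed from all lists, 14 peaks with SCP1 WT and 4 with SCP1 D96A remained in the windows, and all 18 overlapped a gene end zone. They lay on CPSF1, CPSF3, CPSF4, WDR33, PCF11 and XRN2 in SCP1 WT replicates 1 and 3, on CPSF4 and WDR33 in SCP1 WT replicate 2 and in SCP1 D96A replicates 1 and 3, and on no gene in SCP1 D96A replicate 2. At this cutoff 12.8%, 9.78% and 16% of all genes had a peak with SCP1 WT and 6.86%, 4.29% and 6.89% with SCP1 D96A. At this cutoff the covered sequence of 2 genes, CPSF4 and WDR33, was higher in all SCP1 WT libraries than in any SCP1 D96A library, against a background of 5.94%. No gene had a peak in all 3 SCP1 WT and no SCP1 D96A library (background 1.33%), and none in all 6 (2.9%). With the 1163 strongest peaks of every list, 5, 2 and 5 genes had a peak with SCP1 WT and 3, 1 and 3 with SCP1 D96A. The share over all genes was then close between the groups, at 9.58%, 9.35% and 9.99% with SCP1 WT and 9.08%, 8.23% and 9.17% with SCP1 D96A. The same 2 genes, CPSF4 and WDR33, had coverage that did not overlap (background 4.46%). CPSF4 alone had a peak in all 6 lists (3.82%), and no gene had one in SCP1 WT libraries alone (0.377%). The TSS and early gene body peaks of the 9 genes were absent from both forms.

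Another 20 genes of 3′-end processing and termination were read in the same way. Covered sequence did not overlap between the groups and was higher with SCP1 WT for 9 of the 20. A peak in all 3 SCP1 WT and no SCP1 D96A library was found for 4 of them, FIP1L1, SYMPK, CPSF7 and TTF2, and a peak in all 6 libraries for 6, CPSF6, PABPN1, SSU72, SCAF4, RPRD1A and PPP1R10. The background shares are those given above for the 9 genes. SYMPK, the scaffold that joins CPSF and CstF and a partner of the serine 5 phosphatase SSU72, had 6, 2 and 5 peaks in the SCP1 WT libraries, and in replicate 3 these included 1 peak of 17524 bp that ended 2812 bp after the TES. FIP1L1, a CPSF subunit that recruits the poly(A) polymerase, had a peak that began 5598, 5687 and 5569 bp after the TES in SCP1 WT replicates 1, 2 and 3, with fold enrichments of 3.26, 3.70 and 3.43. Its −log10 p-values were 3.94, 4.70 and 4.29. That of replicate 1 was below the limit of every SCP1 D96A list, and that of replicate 3 below 4.6, the limit of SCP1 D96A replicate 2. CPSF7, of cleavage factor I, had one inside the gene, 17470, 17448 and 17463 bp after the TSS, with fold enrichments of 3.81, 3.99 and 3.78. TTF2, a termination factor, had peaks after its TES in all 3 SCP1 WT libraries, the strongest with a fold enrichment of 4.43 in replicate 2. PABPN1, the nuclear poly(A) binding protein, was the 1 gene of the 20 with a TSS peak in all 3 SCP1 WT libraries, and it had one in SCP1 D96A replicates 1 and 3 too. CSTF2, the RNA-binding subunit of CstF, had no peak in any library.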

How the data were processed

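Per the labels and the series design, matched aliquots of HEK293 nuclear lysate were treated with SCP1 WT or SCP1 D96A before pThr4 ChIP-seq, with 3 replicates each. An IgG control was not analysed here. The submitters' processing notes name FastQC, cutadapt 4.6, Bowtie2 2.5.2 and hg38. The peak caller, its control and the read filters are not given in the sources used here; the study provided describes another phosphatase, Ssu72 with symplekin. Peak ends beyond GRCh37 on 7 chromosomes fit hg38.

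For each peak the authors deposited a fold enrichment (a ratio over the library's background), a p-value and a q-value as −log10 (q at least 1, a q cutoff of 0.1) and a score, which is 10 times the −log10 q-value without decimals and was not used. Peaks were listed per library, not on pooled samples. Depth is unknown, so precision rests on the 3 libraries per group. The deposited p-values belong to single peaks of a library's own list and do not measure the spread between libraries.

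Gene positions were those of RefSeq GRCh38.p14. Strand came from the RefSeq promoter table, or by name from GENCODE 44, for 98.3% of 19974 protein-coding genes. TSS and TES are the outer ends of each gene; exons were not told apart. A peak counted with 1 bp of overlap. Groups were compared with the two-sided exact permutation test over 20 assignments, and by whether libraries overlapped, beside the same count over all 19630 genes. All 9 genes were named. The other 20 were named where a peak lay in all SCP1 WT and no SCP1 D96A library, or at the TSS in all SCP1 WT libraries; those with a peak in all 6 libraries and CSTF2 were named after their values were seen. Members and lists were chosen with earlier results of these data known. Counting was tested on simulated data. Alternatives were a stricter q, a common p cutoff, equal peak number, another overlap and window, each library left out, and the replicate block. Python 3.11.15, numpy 2.4.6 and pandas 2.3.3 were used.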

Additional observations from a re-analysis of the deposited data

How the results depend on the processing

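Of 217 recomputed values, 194 were scored as kept and none as reversed, but many could not have reversed. A count cannot fall below 0, nor can the difference of a gene without any SCP1 D96A peak. The replicate block leaves each difference as it is. Kept meant the same side for a single gene and a similar size for a count. For the other differences it meant a move smaller than the spread between replicates. Results depended most on the list cutoff. The difference in the number of genes with a peak (4.67 genes) was 1.67 with equal peak number. The difference in covered sequence (33.8 kb) was 18.5 kb at the common p cutoff and 12.2 kb with equal peak number. The differences in genes with a TSS peak and with an early gene-body peak (1 gene each) were 0 in both forms, as was the count of genes with a peak in all SCP1 WT and no SCP1 D96A library (2 genes). With the early zone drawn to 25% of the gene its difference was 2.67 genes. The count of genes whose covered sequence did not overlap (7) was 2 in both forms. The count of genes with a peak in all 6 libraries (1) was 0 under the stricter q cutoff (−log10 q of 2) and at the common p cutoff. These forms hold fewer peaks.

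Covered sequence fell to a difference of 0 for CPSF2 and CSTF3 under the stricter q cutoff (−log10 q of 2), and for CPSF2, CSTF1 and CSTF3 at the common p cutoff and with equal peak number, where these genes had no peak left. With each library left out in turn, the difference in genes with a peak ran from 3.33 to 5.83, that in covered sequence from 25.8 to 41.1 kb, that in gene end genes from 1.67 to 4.17, and those in TSS and early gene-body genes from 0.50 to 1.5. The counts ran from 2 to 3 (peak in all SCP1 WT and no SCP1 D96A library), from 1 to 4 (all libraries, highest without SCP1 D96A replicate 2) and from 7 to 8 (no overlap). The replicate block left each difference at its value, 33.8 kb for covered sequence, and the exact sign-flip test over 3 pairs cannot go below p = 0.25. Deviations in covered sequence across genes correlated at -0.01, 0.362 and 0.23 for same-numbered libraries and at -0.291 to 0.109 for differently numbered ones. For the presence of a peak the values were 0.031, -0.113 and -0.089 against -0.07 to 0.153. These values do not settle whether the numbers pair the samples, and the design names matched aliquots. The permutation tests given above ignore any pairing. The restriction to replicates 1 and 2 was chosen after seeing the data.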
